A study of Arabidopsis thaliana with 9 samples.

Results

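Pseudogenes are copies of genes that no longer encode a full protein, and in Arabidopsis thaliana many of them lie in pericentromeric heterochromatin, the compact chromatin that flanks the centromeres. DNA methylation and histone H3 lysine 9 methylation keep most sequences there silent, and loss of the factors that maintain these marks, such as the remodeller DDM1 or the methyltransferase MET1, is known to let RNA be made from them. The results below concern 8 such loci whose probe sets gave a measurable signal on Affymetrix ATH1 arrays. The loci are AT5G32430, AT5G34920, AT3G43510, AT4G08220, AT4G05510, AT3G33066, AT4G03530 and AT2G14650, out of 22746 probe sets measured. They were chosen by 3 criteria: RefSeq gene type pseudogene, a position near a centromere, and, on 3 or more of the 9 arrays, a signal over that array's 40th percentile. The last criterion used the measured values, so the fact that these loci give a signal is a description and not a result.

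Total RNA came from whole plants at growth stage 1.04 and 17 days of age, kept at 21 C under a 16 h light and 8 h dark cycle and sown at 25 seeds per plate, with 3 arrays for each line. Lines 409 and 348 are labelled as T-DNA knockout mutants in a series on epigenetic mutants, and no disrupted gene is named for either. For the control, C2S1, the titles say WT but the label for genetic variation says knock out mutation, so its genotype is not settled by the labels. It is not stated that replicates were grown separately, so the p-values reflect sample-to-sample spread that could be technical. Of the fixed tissue markers, the leaf genes LHCB4.1, LHCB4.2 and PSAE1 and the root gene PYK10 were above the 40th percentile on all 9 arrays. LHCB4.1 was at 4480 to 5562 signal units and PYK10 at 2340 to 3641. Only 3 of 5 leaf markers and 1 of 4 root markers had a probe set assigned to a single gene here, and no flower or seed marker did. In whole plants, fewer cells that make an RNA and less of it per cell cannot be told apart.

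Signals are in the intensity units deposited by the authors, with a trimmed mean of 100 as the median over the arrays. The 40th percentile, used here as the line between measurable and dim, was 20.97 to 23.95 signal units for line 409, 20.56 to 22.00 for line 348 and 20.88 to 21.47 for the control. The 20th percentile, a measure of the dimmest signals, was 4.98 to 6.26 in line 409, 4.43 to 5.33 in line 348, with the control at 4.57 to 4.89. The lowest signals were thus brighter on all arrays of line 409 than on any control array, and the part of this shift in the values of dim loci was not tested. The array carries 2 pairs of GAPDH probe sets whose 3'/5' signal ratio is a sign of RNA integrity. The pair named Athal gave 3.28 to 5.01 in line 409 and 2.71 to 4.56 in line 348, against 3.70 to 4.17 in the control, and the lines overlapped. The pair named r2 gave 1.63 to 1.87 in line 409 and 1.58 to 1.70 in line 348, against 1.79 to 1.97 in the control, so here line 348 lay below the control on every array, while line 409 overlapped it. The part of RNA integrity in the values of the loci was not tested.

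Measurable signal was rare among pseudogenes near centromeres. Of 746 pericentromeric pseudogene probe sets assigned to a single gene, taken as lying within 3 Mb of the approximate centromere, 10 passed the detection rule (1.34%), and 721 were above the 40th percentile on none of the 9 arrays. Pseudogenes elsewhere passed in 13 of 243 cases (5.35%), protein-coding loci in the same windows in 591 of 1301 (45.4%) and protein-coding loci elsewhere in 6987 of 11142 (62.7%). These shares describe the array and the plants together, since probe design differs between the classes. The 10 include the 8 listed loci and 2 more, AT4G10580 and AT2G04820, which the window used here also admitted.

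**Figure D1:**
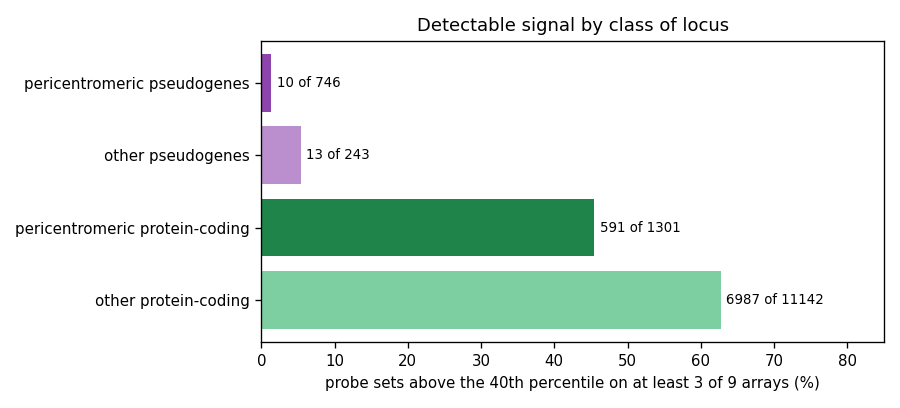
Bars show the percentage of probe sets with a single named gene that were above the 40th percentile on at least 3 of 9 arrays, for pericentromeric and other pseudogenes and for pericentromeric and other protein-coding loci. Beside each bar stand the number that passed and the number measured; 10 of 746 pericentromeric pseudogenes passed, against 591 of 1301 protein-coding loci in the same windows.

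The probe sets differ in how exclusively they read their locus. On this array the ending _at marks probes designed against 1 transcript, _s_at marks probes shared by several similar transcripts, and _x_at marks sets in which some probes may bind unrelated sequences. AT5G32430, AT3G43510, AT4G08220 and AT4G05510 are read by _at sets, AT5G34920, AT3G33066 and AT4G03530 by _s_at sets, and AT2G14650 by an _x_at set. Among the 7633 tested probe sets with a single gene, 28 end in _s_at and 12 in _x_at, and the 8 loci hold 3 of the first kind and 1 of the second. The signal of AT5G34920, AT3G33066, AT4G03530 and AT2G14650 may therefore include RNA of similar sequences, and it is given as the reading of the probe set. No function is annotated for any of the 8 loci in the tables used here.

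The loci fell into those bright on every array and those near the detection limit. AT5G34920, AT3G43510, AT4G08220 and AT4G05510 were above the 40th percentile on all 9 arrays. AT5G32430 was above it on 6, namely all arrays of line 348 and of the control and none of line 409. AT4G03530 was above it on 4 arrays, 2 of line 409 and 2 of line 348, and on none of the control, so it passed the rule only through the mutant lines. AT3G33066 and AT2G14650 each passed on 3 arrays, with 1 in every line.

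**Figure D2:**
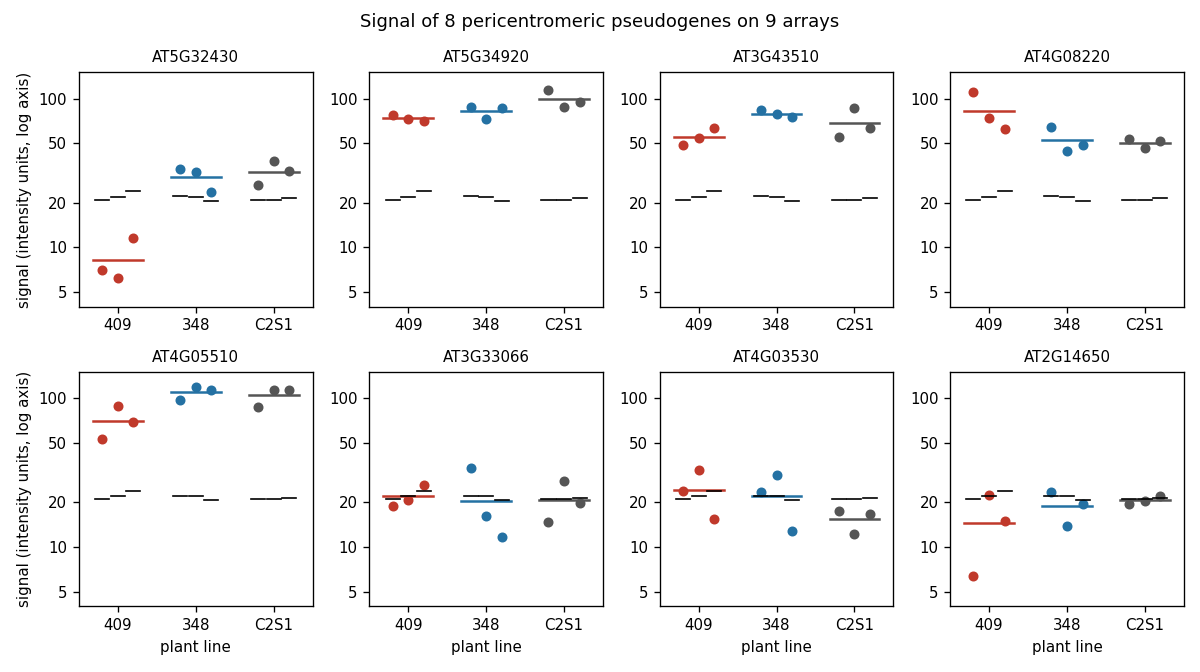
Each panel plots the signal of a pseudogene on the 9 arrays (points, log axis in intensity units), with the mean of each line as a coloured bar and the 40th percentile of each array as a short black bar. The signal of AT5G32430 is 6.19 to 11.6 in line 409, below the percentile, and 23.6 to 37.8 in line 348 and the control.

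Line 409 was set against the control to ask which of these loci differ in that mutant. Signal from AT5G32430 was below the detection line on every array of line 409, AT5G34920 and AT4G05510 were dimmer there, and AT4G08220 was brighter. None of the 8 passed the test across all probe sets. At a limma adjusted p under 0.05, 0 of 8 members were called, where 0.0423% of 14199 tested probe sets were (6 of them). At an unadjusted limma p under 0.05, 4 of 8 were, against 12.2% of all tested probe sets. AT5G32430 passed the detection rule only through line 348 and the control, and AT4G03530 only through the mutant lines, so a difference at these loci was favoured by the rule, while AT5G34920, AT4G08220 and AT4G05510 were above the percentile on every array. The median change of the 8 was -0.33 on the log2 scale, with 3 higher and 5 lower. Over all tested probe sets the median was -0.01, with 6788 higher and 7411 lower.

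AT5G32430, on chromosome 5, had signals of 7.04, 6.19 and 11.6 in line 409, against 26.2, 37.8 and 32.7 in the control. All 3 arrays of line 409 lay below all control arrays and below the 40th percentile of their own array. The means were 8.27 ± 2.90 in line 409 and 32.2 ± 5.84 in the control (SD, n = 3 each). The change was -1.50 on the log2(signal + 4.95) scale with SE 0.253 and a 95% confidence interval of -2.04 to -0.96, and its limma adjusted p was 0.0532, just above the threshold. Because the signal in line 409 was dim, the size of the change depends on the pseudocount, from -2.002 with none to -0.85 with 21.5, and the ratio is a bound. With line 409 set to the 40th percentile of its arrays, the signal was at least 1.43-fold lower. The adjusted p crossed the threshold with the processing, from 0.0197 with quantile normalization to 0.398 without control replicate 2, and was under 0.05 in 6 of 18 alternatives. Without line 409 replicate 2 it was 0.166, and with only the arrays compared it was 0.175.

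In line 348 the same locus had signals of 33.4, 32.3 and 23.6, with replicates 1 and 2 inside the control's range and replicate 3 below it. The mean was 29.8 ± 5.37 (SD, n = 3), a log2 change of -0.10 against the control with a 95% interval of -0.64 to 0.44. Set directly against line 348, line 409 was lower by a log2 change of -1.40 with SE 0.253 and limma adjusted p = 0.257, without overlap between the arrays. The difference did not pass the adjustment over all probe sets. The locus passed the detection rule only through line 348 and the control, which favoured a lower value in line 409.

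The nearest locus with a tested probe set beside AT5G32430 in gene order is AT5G32440, 5 positions away. AT5G32440 had signals of 269.8, 200.6 and 207.8 in line 409, against 252.3, 219.7 and 245.0 in the control, and the values overlapped. Its log2 change was -0.09 in line 409 with limma adjusted p = 0.823. The 7632 other tested probe sets with a single gene were also ranked by how alike their log2 signals ran to AT5G32430 over the 9 arrays. AT5G22850 came first with Pearson r = 0.959, followed by AT4G21620 (r = 0.954) and the Sm-like gene LSM3A (r = 0.952). These correlations describe 9 arrays of 3 lines and were the highest of many. AT5G22850 had a mean of 24.8 ± 6.71 in line 409 and 89.0 ± 3.03 in the control.

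**Figure D3:**
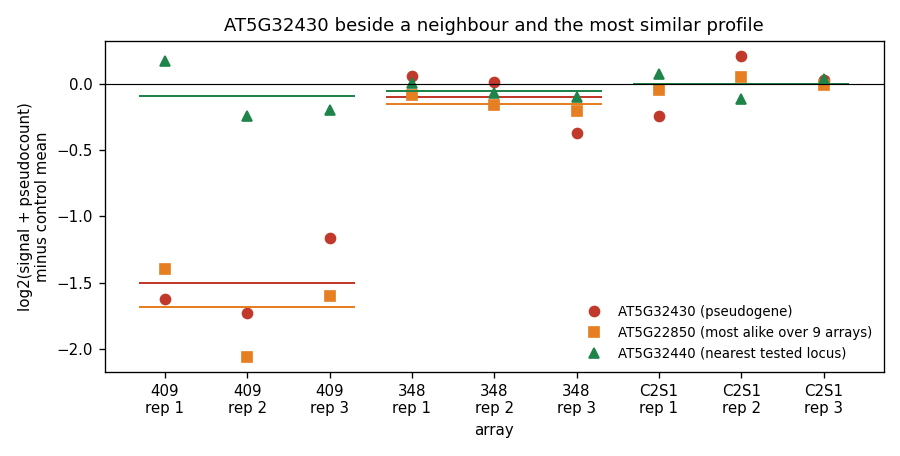
Points give log2(signal + pseudocount) minus the control mean on each of the 9 arrays, for AT5G32430 (circles), AT5G22850 (squares) and AT5G32440 (triangles), and horizontal bars give the mean of each line. AT5G32430 and AT5G22850 are low on all 3 arrays of line 409, at mean differences of -1.50 and -1.68, while AT5G32440 is at -0.09.

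AT4G08220, on chromosome 4, lay higher in line 409 than in the control, without passing the test. Its signals were 110.2, 74.6 and 62.1 in line 409, against 53.7, 46.6 and 51.5 in the control, with no overlap. The spread in line 409 was wide, with the mean at 82.3 ± 24.9 there and 50.6 ± 3.65 in the control (SD, n = 3 each). The log2 change was 0.61 with SE 0.194 and a 95% interval of 0.20 to 1.03, which ranked 144 from the top of all tested probe sets, and the limma adjusted p was 0.245. Without line 409 replicate 1, the brightest array, the change was 0.40. In line 348 the signals were 64.5, 44.3 and 48.8, on both sides of the control values, with a log2 change of 0.04. That direction turned when control replicate 2 or line 348 replicate 1 was left out, and in the replicate-block fit. The nearest tested loci were AT4G08170, 5 positions before AT4G08220, and AT4G08240, 2 positions after it. They stood at log2 changes of -0.29 and 0.19 in line 409, with limma adjusted p = 0.543 and 0.722.

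AT4G05510, also on chromosome 4, had signals of 53.6, 89.2 and 69.6 in line 409, against 88.0, 113 and 113 in the control. Line 409 replicate 2 overlapped the lowest control array, and the other two arrays lay below every control array. The mean was 70.8 ± 17.8 in line 409 and 105 ± 14.4 in the control (SD, n = 3 each), a log2 change of -0.55 with SE 0.171 and limma adjusted p = 0.245. In line 348 the signals were 97.6, 119.6 and 113.6, a log2 change of 0.08 that turned to -0.04 without control replicate 1. Line 409 lay below line 348 on every array, with a log2 change of -0.63 between them and limma adjusted p = 0.53.

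AT5G34920, on chromosome 5, lay lower in both mutant lines than in the control, without passing the test. Its signals were 77.8, 72.8 and 70.8 in line 409 and 87.2, 72.7 and 87.0 in line 348, against 115, 87.9 and 94.9 in the control. All 6 mutant arrays lay below all 3 control arrays, though the gap between line 348 and the lowest control array was under 1 signal unit. The log2 change was -0.40 in line 409 (SE 0.139, limma adjusted p = 0.284) and -0.25 in line 348 (SE 0.139, limma adjusted p = 0.884). Both comparisons use the same control arrays, of which replicate 1 was the highest, and without it the change in line 348 was -0.15. The locus AT5G34930, 2 positions on, had a log2 change of 0.15 in line 409 and 0.09 in line 348.

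AT3G43510, on chromosome 3, had line 409 and line 348 on opposite sides of the control mean. Its signals were 48.8, 54.0 and 63.4 in line 409 and 83.7, 79.0 and 75.5 in line 348, against 55.3, 87.0 and 63.9 in the control. Each mutant line overlapped the control, whose arrays spread widely, and the mutant lines did not overlap each other. The log2 changes were -0.27 in line 409 and 0.22 in line 348, with limma adjusted p = 0.539 and 0.914. Without control replicate 2 they were -0.10 and 0.39, and without control replicate 1 the change in line 348 was 0.08. The direct difference, line 409 minus line 348, was -0.49 with a 95% interval of -0.84 to -0.14 and limma adjusted p = 0.596. AT3G43520, the next locus, had a log2 change of 0.05 in line 409 and -0.05 in line 348.

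AT3G33066, AT4G03530 and AT2G14650 lay around the 40th percentile, and their values overlapped between all lines. AT3G33066 had 18.8, 20.9 and 26.0 in line 409 and 33.9, 16.2 and 11.6 in line 348, against 14.8, 27.9 and 19.8 in the control. AT4G03530 had 23.7, 32.9 and 15.4 in line 409 and 23.4, 30.4 and 12.8 in line 348, against 17.6, 12.3 and 16.7 in the control. In both mutant lines the third array of AT4G03530 was the dim one. AT2G14650 had 6.35, 22.4 and 15.02 in line 409 and 23.3, 13.8 and 19.6 in line 348, against 19.6, 20.4 and 22.1 in the control.

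The intervals of these 3 loci were wide. In line 409 the log2 changes were 0.08, 0.47 and -0.48, with 95% intervals of -0.59 to 0.75, -0.18 to 1.12 and -1.16 to 0.20 and limma adjusted p = 0.946, 0.564 and 0.566. In line 348 they were -0.08, 0.36 and -0.12, with limma adjusted p = 0.985, 0.92 and 0.977. The sign for AT3G33066 turned in each mutant line when single arrays were left out, and that for AT2G14650 turned in line 348. In line 409 the change of AT2G14650 was -0.13 without replicate 1 of that line and -0.77 without its replicate 2. The change of AT4G03530 in line 409 was 0.25 without replicate 2 of that line. In line 348 it was 0.14 without that line's replicate 2 and 0.64 without its replicate 3. The locus AT4G03520, 1 position before AT4G03530, had a log2 change of -0.02 in line 409 and 0.19 in line 348. AT2G14650 and AT5G32430 were the members with the largest spread of log2 signal over the 9 arrays. The tested genes most like AT2G14650 were AT2G21090 (r = 0.957), AN (r = 0.933) and AT2G47020 (r = 0.926), each lowest on line 409 replicate 1.

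Line 348 was set against the same control arrays. At a limma adjusted p under 0.05, 0 of 8 were called, where 0.0211% of tested probe sets were. At an unadjusted limma p under 0.05, 0 of 8 were, against 5.64% of all tested. The median log2 change of the 8 was -0.02, with 4 higher and 4 lower, beside -0.01 over all tested probe sets. The 95% intervals of AT5G32430, AT4G08220 and AT4G05510 in line 348 reached -0.64 to 0.44, -0.38 to 0.45 and -0.29 to 0.44, so changes of those sizes are compatible with the data.

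**Figure D4:**
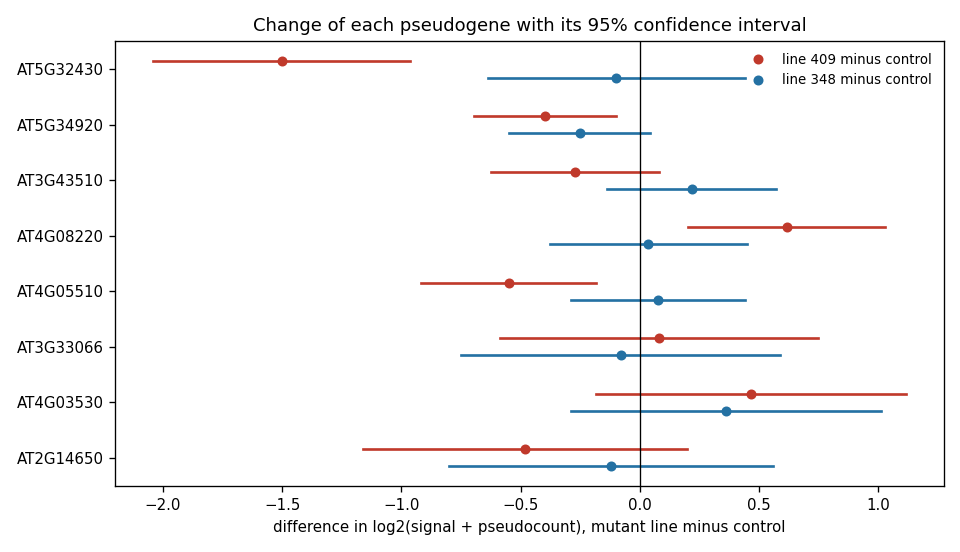
Points give the difference in log2(signal + pseudocount) between each mutant line and the control for the 8 loci, and bars give its 95% confidence interval from the fit across all probe sets (3 arrays per line). For line 409 the intervals of AT5G32430, AT5G34920, AT4G08220 and AT4G05510 lie on 1 side of 0, and for line 348 every interval spans 0; none of these changes passed the adjustment over all probe sets.

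Separation of the arrays was counted as well. In line 409, 1 of 8 loci lay wholly above the control, where 7.79% of tested probe sets did, and 2 lay wholly below, where 9.87% did. In line 348, 0 of 8 lay wholly above, against 6.06%, and 1 lay wholly below, against 7.13%. Between the mutant lines, 0 of 8 lay wholly higher in line 409, against 5.47% of tested probe sets, and 3 lay wholly lower, against 5.67%. In the direct comparison, 0 of 8 were called at a limma adjusted p under 0.05, against 0.0141% of all. An unadjusted limma p under 0.05 was found for 4 of 8, against 7.48% of all, namely AT5G32430, AT3G43510, AT4G08220 and AT4G05510. AT5G32430 was also 1 of the 2 wholly below the control and 1 of the 3 wholly below line 348. It passed the detection rule only through line 348 and the control, which favoured a lower value in line 409 in these counts.

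Protein-coding loci and pseudogenes in general give the background. Of 591 tested protein-coding loci in the windows, 285 were higher and 306 lower in line 409, with a median log2 change of -0.01, and 73 (12.4%) had an unadjusted limma p under 0.05. All 23 tested pseudogenes, the 8 included, had 8 higher and 15 lower in line 409, with a median of -0.05. An unadjusted limma p under 0.05 was found for 5 of the 23 (21.7%), against 12.2% of all tested probe sets. Of those 5, 4 were among the 8 loci. AT5G32430, which is in these counts, passed the detection rule only through line 348 and the control. That favoured a lower value in line 409. Of 24 genes of DNA methylation and silencing fixed as a list, only the demethylase DME was read by probe sets assigned to a single gene. Its 2 tested sets differed from the control by 0.04 and 0.17 log2 units in line 409 and by 0.32 and 0.09 in line 348, and neither was called. A further DME set, under the detection rule, had means of 8.23 ± 6.51 in line 409 and 12.7 ± 5.21 in line 348. The control mean of that set was 14.0 ± 8.77, and the lines overlapped.

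The 2 further loci within the window were close to the detection limit. AT4G10580 had 17.1, 26.3 and 18.3 in line 409 and 16.8, 13.61 and 17.6 in line 348, against 22.5, 18.2 and 23.6 in the control. AT2G04820 had 27.7, 18.9 and 18.9 in line 409 and 19.1, 18.7 and 18.5 in line 348, against 25.9, 23.3 and 24.3 in the control. In line 348 both lay wholly below the control, as 7.13% of tested probe sets did, with log2 changes of -0.33 and -0.31 and limma adjusted p = 0.911 and 0.906. Neither was above the 40th percentile on any array of line 348, so both passed the rule through the other lines, which favoured a lower value in line 348. AT4G10580 is read by an _x_at set.

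Just outside the rule, 15 pericentromeric pseudogenes were above the 40th percentile on 1 or 2 arrays. The 3 with the highest mean signal were AT4G04010 and AT2G04980, read by _x_at sets, and AT1G33660, read by an _at set. AT4G04010 had 23.1, 20.9 and 22.6 in line 409 and 10.1, 13.2 and 12.8 in line 348, against 10.96, 16.3 and 14.3 in the control. AT1G33660, annotated as a transcribed pseudogene, had 24.6, 16.5 and 34.5 in line 409 and 10.2, 11.71 and 12.0 in line 348, against 7.59, 7.23 and 9.96 in the control. Both entered this group only through arrays of line 409, which favoured higher values there. AT2G04980 had a mean of 15.3 ± 7.88 in line 409 and 18.2 ± 6.48 in line 348, against 11.69 ± 5.02 in the control, and its lines overlapped. Of the 15, 3 lay wholly above the control in line 409 and 2 wholly below, where 8.55% and 7.36% of all 22746 probe sets did. In line 348, 1 lay wholly above and 2 wholly below, where 6.06% and 6.01% did. The 2 below were the same in both lines, AT4G04410 and AT2G06190, which entered the group only through control arrays, and both lines share those arrays. AT2G06190, named after its values were seen, had 1.90, 3.94 and 6.05 in line 409 and 7.10, 2.10 and 3.87 in line 348, against 7.86, 22.7 and 10.4 in the control.

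AT4G04410, another of these 15, was singled out after its values were seen. Its signals were 0.446, 0.967 and 4.02 in line 409 and 2.35, 0.497 and 0.4004 in line 348, against 22.8, 25.3 and 19.3 in the control. On both mutant lines the probe set, an _at set, gave almost no signal, while 2 of 3 control arrays were above the 40th percentile. In a fit of all 22746 probe sets without the detection filter, AT4G04410 was called in both lines. Its log2 change was -2.05 in line 409 (SE 0.270, limma adjusted p = 0.0332), where 0.0352% of all probe sets were called, and -2.19 in line 348 (SE 0.270, limma adjusted p = 0.0445), where 0.00879% were. It was the only pseudogene of all 989 called in that fit, and 0 of the 8 listed loci were called there. Both comparisons share the control arrays, the locus entered the group only through control arrays, and the control signals were themselves at the detection limit. The log2 values are therefore no measure of size or bound: with the pseudocount they ran from -4.22 to -0.92 in line 409 and from -4.845 to -0.96 in line 348. The calls were not stable across the alternatives. Over 15 alternatives, chosen after the values were seen, the adjusted p ran from 0.0174 to 0.269 in line 409 and from 0.00947 to 0.478 in line 348, with 5 and 4 of them under 0.05, and the change was negative in each. With 1 of the 9 arrays left out, the call in line 409 held in the fit without control replicate 3 (limma adjusted p = 0.0441) and was lost in the other 8 fits. The call in line 348 held in the fit without line 409 replicate 3 (limma adjusted p = 0.0356) and was lost in the other 8. Arrays outside the comparison mattered too. Without line 348 replicate 1, 2 or 3 the change in line 409 stayed at -2.05, with limma adjusted p = 0.0632, 0.0846 and 0.0675. In those fits 0, 2 and 2 of all probe sets were called in line 409, against 8 with all arrays.

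**Figure D5:**
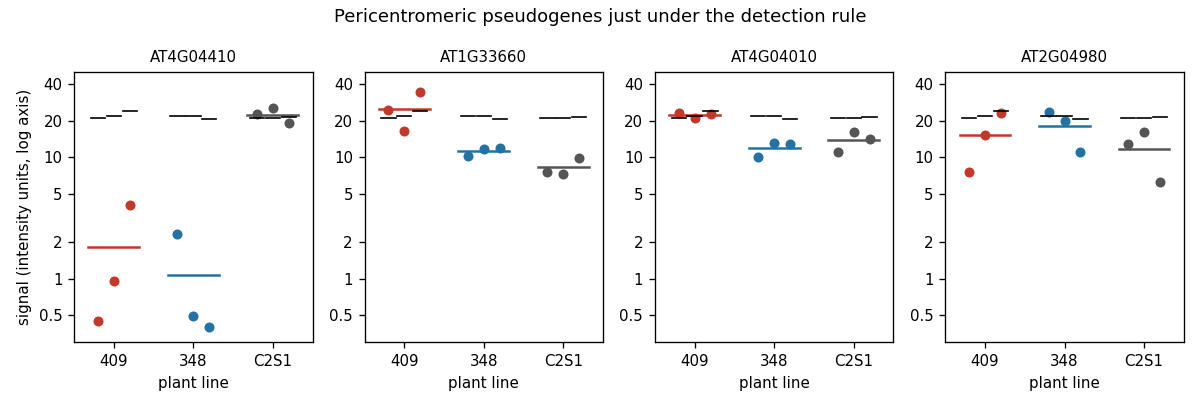
Panels plot the signals of AT4G04410, AT1G33660, AT4G04010 and AT2G04980 on the 9 arrays (points, log axis in intensity units), with the mean of each line as a coloured bar and each array's 40th percentile as a short black bar. AT4G04410 is at 0.4004 to 4.02 on the 6 mutant arrays and 19.3 to 25.3 on the control arrays.

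As a whole the pericentromeric pseudogenes were dim in every line. The number above the 40th percentile per array was 9, 9 and 10 in line 409 and 10, 6 and 6 in line 348, against 9, 10 and 9 in the control. Their summed signal was 2816, 3088 and 3575 in line 409 and 2869, 2841 and 2449 in line 348, against 2417, 2722 and 2477 in the control. The sum was higher on each array of line 409 than on any control array (two-sided exact permutation p = 0.1, the smallest that 3 against 3 arrays allow), and it overlapped between line 348 and the control (exact permutation p = 0.3). The median signal of the same probe sets was 1.43 to 1.96 in line 409 and 1.21 to 1.73 in line 348, against 1.05 to 1.44 in the control, and overlapped in both comparisons (exact permutation p = 0.2 for line 409 and 0.3 for line 348). The 20th percentile of all probe sets was also higher on all 3 arrays of line 409 than on the control arrays, and its part in this difference was not tested. The summed signal of the 8 loci was lower on each array of line 409 than on any control array, at 346, 373 and 334 against 390, 433 and 415. In line 348 it was 447, 408 and 393 and overlapped the control. The sum includes AT5G32430, which passed the detection rule only through line 348 and the control, and that favoured a lower sum in line 409. AT5G32430 had a mean of 8.27 in line 409 and 32.2 in the control, beside mean sums of 351 and 413. AT4G03530, also in the sum, passed the rule only through the mutant lines.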

How the data were processed

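Total RNA of 9 whole-plant samples was labelled with biotin and hybridised to ATH1 arrays, 1 sample per array. The deposited intensity values are linear signals, already scaled by the authors as the values show. The submitters' processing notes name MAS5 and GCOS. The 2% trimmed mean was 100 as the median over the arrays, and no further normalization was applied. Probe sets were named from the given platform and RefSeq TAIR10.1 gene tables. No genome build is given for the array files, so coordinates are not printed, and sequences were not used here.

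Control probe sets (64) were left out. A pseudocount of 4.95, which is the 20th percentile of all 22810 probe sets of the file (median of the arrays), was added before log2 and shrinks changes of dim loci. Probe sets above the 40th percentile of the 22746 others on 3 or more arrays, 14199 in all, were tested with limma 3.58.1 in R 4.3.3 in 1 model of 9 arrays with an intensity trend, 6 residual degrees of freedom and 8.86 prior ones (median), adjusted by Benjamini-Hochberg over all of them and called at an adjusted p under 0.05. Precision is limited by the number of arrays. The code was tested on simulated data.

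The 8 loci and all lists were chosen with earlier results of these data known. Named were the 8 loci, other tested pseudogenes in the windows, the 3 brightest just outside the rule, the nearest tested neighbours, the 3 most similar genes for the 2 most variable members, and tested genes of the lists. AT4G04410, AT2G06190 and AT5G34790 were named after their values were seen. Alternatives changed the normalization, pseudocount, filter, variance model, weights, arrays and replicate block, and the detection percentile.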

Additional observations from a re-analysis of the deposited data

Results flagged for a closer look

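Pericentromeric pseudogenes under the detection rule were left out of the filtered fit. Among the 15 above the 40th percentile on 1 or 2 arrays, AT4G04010, AT1G33660 and AT5G34790 had a mean signal in line 409 of 22.2, 25.2 and 17.0, against 13.8, 8.3 and 4.0 in the control, with every array of line 409 above every control array, as in 8.55% of all probe sets. These 3 entered the group only through line 409 arrays, which favoured this direction. AT4G04410 and AT2G06190 lay wholly below the control in both lines, as 7.36% of all probe sets did in line 409 and 6.01% in line 348. Both loci entered the group only through control arrays, which favoured lower values in the mutant lines, and both comparisons share those arrays. The mean of AT2G06190 was 3.96 in line 409 and 4.35 in line 348, against 13.64 in the control, with unfiltered limma adjusted p = 0.368 and 0.943. AT1G33660 had a mean signal of 11.3 in line 348, against 8.3 in the control, again with no overlap, as in 6.06% of all probe sets. In the fit of all probe sets without the filter, the log2 changes of AT4G04010, AT1G33660 and AT5G34790 in line 409 were 0.54, 1.15 and 1.34, with limma adjusted p = 0.471, 0.237 and 0.264, so none was called. For AT1G33660 in line 348 the log2 change was 0.30 with limma adjusted p = 0.986. The 20th percentile of all probe sets was also higher in line 409 than in the control, and its part in these values was not tested.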

How the results depend on the processing

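The number of the 8 loci called in line 409 against the control was 0, and it was 1, AT5G32430 each time, with quantile normalization, median centring, no intensity trend and array weights; leaving out single arrays gave 0 to 1, with 1 without control replicate 3 or line 409 replicate 3. In the other 2 comparisons it was 0 under every alternative run. Of 444 values of the 8 loci under alternatives, 422 kept their direction and their side of the threshold, 6 crossed it and 16 turned sign. The cause was not tested. The log2 values could not move where only the filter, the intensity trend or the arrays outside a comparison changed. Their direction was fixed in those alternatives, so the 422 are no measure of stability.

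None of these loci was called in the main fit, so all turned signs belonged to changes that were not called. Leaving out single arrays, the log2 change ranged from -0.10 to 0.27 for AT3G33066 and from -0.21 to 0.037 for AT4G10580 in line 409. In line 348 it ranged from -0.22 to 0.036 for AT5G32430, -0.11 to 0.14 for AT4G08220, -0.038 to 0.16 for AT4G05510, -0.43 to 0.18 for AT3G33066 and -0.25 to 0.040 for AT2G14650. Between lines 409 and 348 it ranged from -0.10 to 0.51 for AT3G33066 and -0.17 to 0.33 for AT4G03530. With array weights AT4G10580 in line 409 was 0.056. With the title numbers as a replicate block, AT4G08220 and AT2G14650 in line 348 were -0.065 and 0.072, and AT5G32430 in line 409 had limma adjusted p = 0.0796.

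Same-numbered arrays of line 409 and the control deviated together at r = 0.19, -0.04 and 0.10, 2 of 3 arrays correlated best with their own number, and the titles number line 348 as 1, 1 and 3, so the numbers were not taken as pairs. With the block, 8 probe sets were called in line 409, against 6 without it; the count was 40 with array weights, 60 when control replicate 3 was left out and 1 when line 409 replicate 2 was. The log2 change of AT5G32430 in line 409 depended on the pseudocount, from -2.002 with none to -0.85 with 21.5, and that of AT4G04410 from -4.22 to -0.92. At the 30th percentile AT3G33066, AT4G03530 and AT2G14650 were above it on 9, 9 and 8 arrays, and at the 50th on 0, as was AT5G32430. The filter at the 60th percentile removed AT5G32430, AT3G33066, AT4G03530 and AT2G14650.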

Other observations

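Across all 746 pericentromeric pseudogene probe sets, fitted with no filter, 504 were higher and 242 lower in line 409, with a median log2 change of 0.11. Over all 22746 probe sets in the same fit, 12110 were higher and 10636 lower, with a median of 0.02. In line 348, 414 were higher and 332 lower, with a median of 0.03, beside 0.00 over all probe sets. Before adjustment, 66 of the 746 (8.85%) passed a limma p of 0.05 in line 409, against 10.1% of all probe sets, and 35 (4.69%) did in line 348, against 5.07%. AT4G04410 was the 1 called in each line. Most of these probe sets were dim on every array, and the 20th percentile of all signals was higher in line 409, so the part of low-end brightness in these directions was not tested.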
